A study of Homo sapiens with 6 samples.

Results

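The mitochondrial protein import machinery was followed in SW620 cells with and without a hairpin against ECM1. Its genes were taken by symbol: every TIMM and TOMM gene of the count table, plus TIMMDC1, SAMM50, MTX1, MTX2, MTX3, PAM16, DNAJC19, GRPEL1, GRPEL2, CHCHD4, GFER, PMPCA, PMPCB and MIPEP. The rule used no measured value and gave 39 of the 20476 gene rows. By role, 13 of these were placed with the outer mitochondrial membrane and 15 with the inner membrane. A further 7 were placed with the intermembrane space and 3 with the matrix, and 1 is a cytosolic cochaperone. The import motor was placed whole with the inner membrane, although its nucleotide exchange factors GRPEL1 and GRPEL2 are soluble matrix proteins.

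SW620 is an established human colorectal cancer cell line, and ECM1 encodes a secreted extracellular matrix glycoprotein. The study compared SW620 with a short hairpin RNA against ECM1 (shECM1, 3 libraries) with SW620 carrying a control hairpin (shNC, 3 libraries). Both groups share the parental line and the presence of a hairpin, and the labels do not say how many hairpins or clones were used. Counts per library totalled 9881720 to 16813951.

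Nearly all mitochondrial proteins are made in the cytosol and enter the organelle through the TOM complex of the outer membrane. From there, proteins with a cleavable presequence pass through the TIM23 complex and are pulled into the matrix by a motor built on the mitochondrial Hsp70, while carrier proteins are guided by small TIM chaperones to the TIM22 complex. Outer membrane beta-barrels are inserted by the SAM complex, and cysteine-rich proteins of the intermembrane space are trapped by oxidation through the MIA relay.

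Most import genes stood higher in the shECM1 libraries, on both membranes and by small amounts. Of the 39 members, 37 had enough counts to be tested, and TIMM10B and TIMM23B had 0 counts in every library. By sampling alone, a count of 0 allows up to 3 counts, which is 0.178 to 0.304 CPM depending on the library. That bound does not cover reads lost in counting. On the same strand, AC084337.2 covers 13.55% of the exonic bases of TIMM10B and also had 0 counts in every library. Most exonic bases of TIMM10B lie outside this overlap, and the origin of its zeros was not tested. TIMM23B is a near-identical copy of TIMM23. These zeros do not show that either gene was silent. CPM are counts scaled to a common library total. The log2 fold change, here always shECM1 minus shNC, was positive in 34 of the 37 tested members (91.9%), against 51.4% of all 12576 genes tested. The median over the 37 members was 0.28, against 0.01 over all genes, and TOMM5 alone was past a 1.5-fold difference.

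None of these differences passed the study-wide threshold when all 6 libraries were used. The quasi-likelihood test of edgeR, adjusted by Benjamini-Hochberg over all genes, called 0 of 37 members, as it called 0% of all genes. The smallest adjusted p of a member was 0.0973, for TIMM22. At an unadjusted p under 0.05, 15 members (40.5%) were higher in shECM1, against 8.31% of all genes, and 0 were lower, against 14.2%. In 16 members (43.2%) every shECM1 library lay above every shNC library, against 11.2% of all genes, and in 0 members every shECM1 library lay below, against 13.2%. DESeq2 called 5 of the 36 members to which it gave an adjusted p, all higher, against 1.03% of all genes called higher. These were TIMM23, TIMM10, TIMM8B, TIMM22 and DNAJC19, and limma-voom called 0.

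The count of calls turned on shNC replicate 2. On the first principal component, which held 58.1% of the variance, this library scored 8.64, nearer to the shECM1 libraries (16.6 to 23.3) than to the other shNC libraries (-25.2 and -41.3). ECM1 itself stood at 19.0 CPM there, against 38.8 and 52.3 CPM in shNC replicates 1 and 3 and 14.8, 13.6 and 8.41 CPM in the shECM1 libraries. The control library with the least ECM1 was also the one nearest to the knockdown on this component. In 29 of the 37 tested members, shNC replicate 2 was the highest shNC library. The share over all genes was not computed, so this count is not shown to be particular to the members. Without it, edgeR called 16 members, all higher in shECM1, against 9.73% of all genes called higher. These were TOMM40, TOMM22, TOMM70, TOMM6 and SAMM50 of the outer membrane, TIMM17A, TIMM23, TIMM50, TIMM22 and DNAJC19 of the inner membrane, all 5 small TIM chaperones, and MIPEP. DESeq2 without that library called 15 of the same 16, leaving out TIMM8A, against 8.41% of all genes called higher. Leaving out the control nearest to the knockdown tends to widen the gap between the groups and favours calls. Over all genes edgeR then called 3037 in place of 0, and leaving out any other library gave 0. Both methods used the same libraries, so their shared calls are not independent support. Leaving out another control lowered the number of members at an unadjusted p under 0.05 from 15 to 8 (without shNC replicate 1) or 10 (without shNC replicate 3), and without shNC replicate 2 it was 22. The number of all genes at such a p, in either direction, moved the same way. It went from 2827 to 1522 (without shNC replicate 1), 1433 (without shNC replicate 3) and 4748 (without shNC replicate 2).

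**Figure D1:**
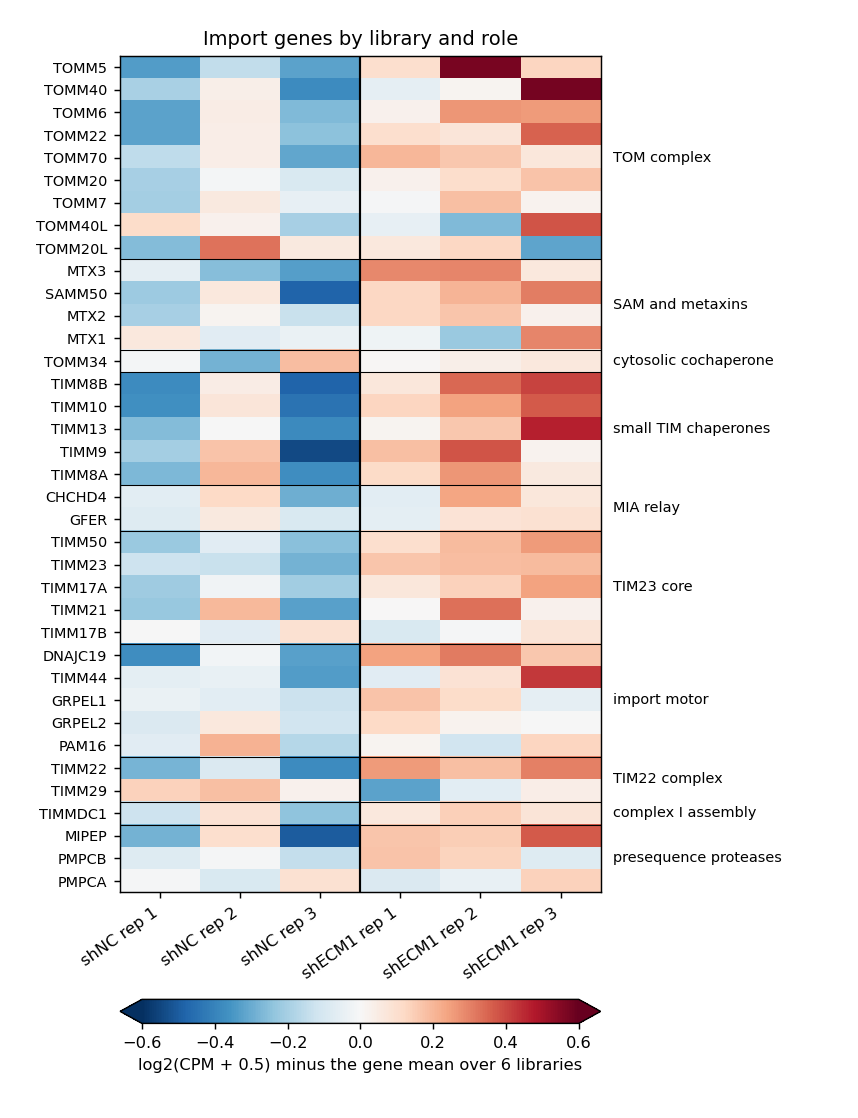
Each row is 1 of the 37 tested import genes, grouped by role, and each column is 1 library. Colour gives log2(CPM + 0.5) minus the gene's mean over the 6 libraries, from blue (lower) to red (higher). Most rows are blue in shNC replicates 1 and 3 and red in the shECM1 libraries. In most rows shNC replicate 2 lies between, and it is the highest shNC library in 29 of 37 rows, a count not set against all genes.

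The promoters of these genes were read for letters known from other nuclear genes of mitochondrial proteins. The RefSeq table for GRCh38.p14 held promoters, from 250 bases before to 50 after the start, for 36 of the 39 members, with no entry for TIMM8B, GRPEL1 and TOMM5. The NRF1 core GCGCANGCG, searched on both strands like the others, occurred in 11 of 36 (30.6%), against 14.8% of the promoters of tested genes and 8.05% of all 27305 promoters. The ETS core CCGGAAG, bound by GABP and other ETS factors, occurred in 17 of 36 (47.2%), against 19.4% and 10.7%. The YY1 core AAGATGGC occurred in 4 of 36 (11.1%), against 5.42% and 3.03%. At least 1 of the 3 was found in 26 members, and 5 had both the NRF1 and the ETS letters. The ETS core ends in the AAG with which the YY1 core begins, so that they can overlap, which they did in none of these promoters. MTX3 held both the ETS and the YY1 letters, apart from each other. The promoters of 4 members follow, each as the stretch of the 250 bases before the start that holds no annotated exon, 5′ to 3′ on the gene's strand, in lower case with the searched letters in capitals on whichever strand they lie. TIMM23 (chr10:45972239-45972448, plus strand) and SAMM50 (chr22:43955192-43955420, plus strand) stand for members that were higher in every shECM1 library, with ETS letters beginning 48 bases and NRF1 letters beginning 126 bases before the start. TIMM22 (chr17:996879-997116, plus strand) is shown because it had the smallest p of all members and none of the 3 sets of letters. TOMM7 (chr7:22822853-22823099, minus strand) is shown because it holds the NRF1 letters at 124 and at 13 bases before the start while its groups overlapped.
TIMM23: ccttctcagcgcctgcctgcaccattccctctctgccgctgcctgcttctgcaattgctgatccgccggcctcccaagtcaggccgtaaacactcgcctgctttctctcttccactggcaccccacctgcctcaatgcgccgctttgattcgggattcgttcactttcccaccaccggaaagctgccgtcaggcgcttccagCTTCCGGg
SAMM50: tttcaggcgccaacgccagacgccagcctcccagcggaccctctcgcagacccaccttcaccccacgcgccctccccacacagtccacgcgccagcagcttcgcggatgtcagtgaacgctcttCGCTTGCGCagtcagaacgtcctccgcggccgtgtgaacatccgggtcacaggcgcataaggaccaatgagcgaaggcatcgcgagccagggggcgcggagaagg
TIMM22: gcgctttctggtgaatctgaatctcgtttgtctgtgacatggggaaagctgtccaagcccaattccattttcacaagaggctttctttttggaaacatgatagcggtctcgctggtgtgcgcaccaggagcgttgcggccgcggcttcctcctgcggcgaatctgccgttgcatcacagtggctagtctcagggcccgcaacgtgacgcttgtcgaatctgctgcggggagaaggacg
TOMM7: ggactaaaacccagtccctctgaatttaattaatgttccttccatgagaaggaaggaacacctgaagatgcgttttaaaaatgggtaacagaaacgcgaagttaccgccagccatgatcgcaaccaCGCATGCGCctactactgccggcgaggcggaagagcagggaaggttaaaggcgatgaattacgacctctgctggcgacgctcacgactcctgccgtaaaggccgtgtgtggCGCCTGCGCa

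The members' differences are given by the letters they hold, as a description with no test. The 15 tested members with ETS letters had a median log2 fold change of 0.28 and the 19 without had 0.25. The 11 with NRF1 letters had a median of 0.16 and the 23 without had 0.28. Of them, 3 and 10 were higher at an unadjusted p under 0.05, against 8.31% of all genes. The 4 with YY1 letters had 0.21 and the 30 without had 0.26. A match is a description of the sequence and does not show binding.

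Among outer membrane members, the receptors TOMM22, TOMM70 and TOMM20 and the SAM core SAMM50 stood higher in every shECM1 library, while the pore TOMM40 and the paralogs TOMM40L and TOMM20L overlapped between the groups. The 13 outer members had a median log2 fold change of 0.28, with 12 positive, 6 higher at an unadjusted p under 0.05 and 7 without overlap between the groups. Of all genes, 51.4% were positive, 8.31% were higher at such a p and 11.2% lay higher without overlap. TOMM22, the central receptor that organises the complex (chr22:38681948-38685421, GRCh38), measured 39.6, 51.0 and 41.7 CPM in shNC replicates 1 to 3 and 53.1, 52.0 and 63.4 CPM in shECM1. All 3 shECM1 libraries lay above the controls, with shNC replicate 2 just under them, and the log2 fold change was 0.35 ± 0.13 (SE; edgeR adjusted p = 0.168). TOMM40, the beta-barrel that forms the pore (chr19:44890569-44903689), measured 74.6, 87.4 and 65.6 CPM in shNC and 82.3, 86.2 and 127 CPM in shECM1. Its groups overlapped, because shNC replicate 2 exceeded shECM1 replicates 1 and 2 and shECM1 replicate 3 stood far above the rest. The log2 fold change of TOMM40 was 0.38 ± 0.17 (edgeR adjusted p = 0.218), and 0.15 without shECM1 replicate 3.

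Beside the central receptor, TOMM70 and TOMM20 meet precursors in the cytosol. TOMM70, which docks chaperone-bound carrier precursors (chr3:100363431-100401398), measured 89.2, 102 and 79.7 CPM in shNC and 114, 111 and 104 CPM in shECM1, a log2 fold change of 0.28 ± 0.11. TOMM20, which recognises presequences (chr1:235109336-235128936), measured 112, 128 and 121 CPM in shNC and 132, 139 and 145 CPM in shECM1. The groups of both receptors lay apart, with shNC replicate 2 the highest control in each, and the log2 fold change of TOMM20 was 0.20 ± 0.10 (edgeR adjusted p = 0.254).

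The small subunits, which help to assemble and stabilise the pore, were uneven. TOMM5 (chr9:37582646-37592642) measured 3.47, 4.02 and 3.51 CPM in shNC and 4.86, 6.91 and 4.98 CPM in shECM1. Its groups lay apart and its log2 fold change of 0.62 ± 0.23 was the largest of all members (edgeR adjusted p = 0.156), but it rested on 41 to 116 counts per library. On the same strand, AL138752.2 covers 14.27% of its exonic bases and AL513165.2 covers 9.33%, with 0 to 2 and 0 counts. Its own counts are therefore uncertain too. TOMM6 had a log2 fold change of 0.36, with overlapping groups, and TOMM7 had 0.13. The counts of TOMM6 are uncertain, since its exons lie wholly within those of AL365205.1 on the same strand, which itself held only 1 to 7 counts. The paralogs TOMM40L (0.07) and TOMM20L (-0.14) showed overlapping groups, and TOMM20L rested on 11 to 23 counts.

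In the SAM complex, the insertase SAMM50 (chr22:43955421-44010531) measured 53.9, 65.7 and 44.95 CPM in shNC and 68.5, 72.5 and 77.9 CPM in shECM1. No shNC library reached the lowest shECM1 library, and the log2 fold change was 0.41 ± 0.14 (edgeR adjusted p = 0.135). The metaxins are its partners on the cytosolic face. MTX2 measured 58.6, 68.2 and 61.3 CPM in shNC and 73.4, 75.6 and 68.6 CPM in shECM1, a log2 fold change of 0.21 ± 0.11. MTX3 stood apart between the groups at 2.22 to 2.79 and 3.07 to 3.69 CPM (0.50 ± 0.24), on 31 to 62 counts, while MTX1 showed 0.04 with overlapping groups. TOMM34, a cytosolic cochaperone that carries the TOM name but is no pore subunit, measured 151, 125 and 173 CPM in shNC and 153, 156 and 159 CPM in shECM1, so that its controls spread on both sides of the knockdown (0.06 ± 0.12).

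**Figure D2:**
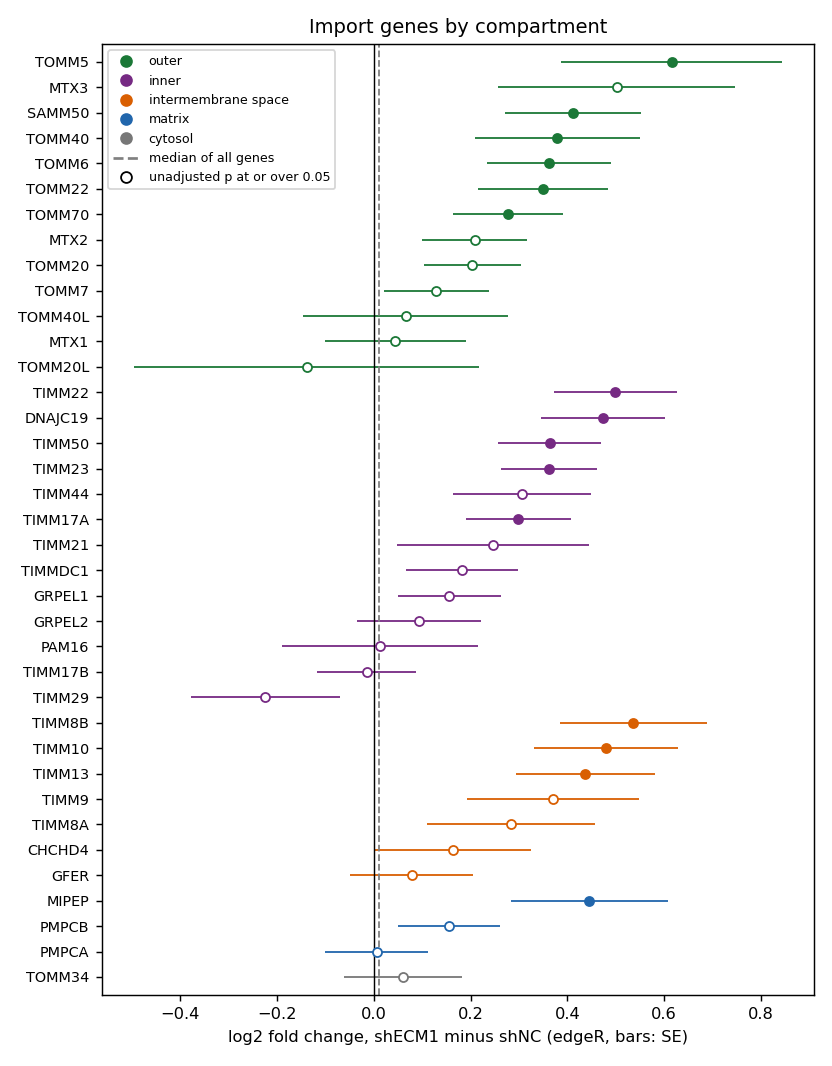
Points are the edgeR log2 fold changes (shECM1 minus shNC) of the 37 tested import genes with their standard errors, grouped by compartment. Filled points had an unadjusted p under 0.05, and the dashed line is the median of all genes tested, 0.01. Both membranes span values from near 0 to about 0.6 on the outer and 0.50 on the inner membrane, with TOMM20L, TIMM17B and TIMM29 below 0.

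The inner membrane members had a median log2 fold change of 0.25 over the 13 that were tested, with 11 positive, 5 higher at an unadjusted p under 0.05 and 5 without overlap. The shares of all genes were 51.4% positive, 8.31% higher at such a p and 11.2% higher without overlap. In the TIM23 core, 3 of 5 tested members stood apart between the groups, and TIMM17B and TIMM21 did not. TIMM23, which helps to form the presequence channel (chr10:45972449-46003734), measured 88.4, 87.9 and 79.1 CPM in shNC and 108, 109.9 and 110.1 CPM in shECM1. The shECM1 libraries nearly coincided, and here shNC replicate 2 sat with the other controls. The log2 fold change was 0.36 ± 0.10 (edgeR adjusted p = 0.105, DESeq2 adjusted p = 0.0364). TIMM23B is a near-identical copy of TIMM23, so that reads may be shared between them and the counts of both are uncertain.

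TIMM50, the receptor that takes presequences from the TOM complex (chr19:39480412-39493785), measured 66.3, 74.0 and 65.1 CPM in shNC and 83.1, 88.5 and 92.6 CPM in shECM1. Its groups lay well apart (0.36 ± 0.11, edgeR adjusted p = 0.112). TIMM17A (chr1:201955491-201970661), which shapes the channel with TIMM23, measured 62.4, 71.4 and 62.7 CPM in shNC and 75.9, 80.0 and 85.8 CPM in shECM1. All 3 knockdown libraries again lay above the controls (0.30 ± 0.11, edgeR adjusted p = 0.151). Its paralog TIMM17B (chrX:48893447-48898143) measured 98.6, 94.4 and 105 CPM in shNC and 92.8, 98.3 and 104 CPM in shECM1, with a log2 fold change of -0.01 ± 0.10. TIMM21, which links the TIM23 complex to the TOM complex and the respiratory chain, had 0.25 with overlapping groups, 0.45 without shNC replicate 2, 0.14 without shNC replicate 3 and 0.13 without shECM1 replicate 2.

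In the import motor, 1 of 5 members stood apart between the groups, against 11.2% of all genes higher without overlap. DNAJC19, the J-protein that stimulates the mitochondrial Hsp70 (chr3:180983709-180989774), measured 30.5, 39.1 and 31.4 CPM in shNC and 46.9, 49.2 and 44.3 CPM in shECM1. Its groups lay apart with shNC replicate 2 the highest control, and the log2 fold change was 0.47 ± 0.13 (edgeR adjusted p = 0.105, DESeq2 adjusted p = 0.0337). TIMM44, which anchors Hsp70 at the channel, measured 67.3, 68.02 and 55.5 CPM in shNC and 67.0, 74.5 and 94.2 CPM in shECM1. Its shECM1 replicate 1 fell among the controls (0.31 ± 0.14, edgeR adjusted p = 0.229), and without shECM1 replicate 3 the log2 fold change was 0.16. PAM16, which restrains DNAJC19, and the nucleotide exchange factors GRPEL1 and GRPEL2 had log2 fold changes of 0.01, 0.16 and 0.09 with overlapping groups. The counts of PAM16 (59 to 94) are uncertain, since CORO7-PAM16 covers 21.9% of its exonic bases on the same strand, itself with 0 counts.

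In the TIM22 complex, the tested subunits had log2 fold changes of opposite sign. TIMM22, the carrier translocase itself (chr17:997117-1003671), measured 22.8, 26.1 and 21.3 CPM in shNC and 33.3, 31.6 and 34.4 CPM in shECM1. The gap between the groups exceeded the range within either group, with a log2 fold change of 0.50 ± 0.13 (edgeR adjusted p = 0.0973, DESeq2 adjusted p = 0.0272). TIMM29, a subunit that connects TIM22 to the TOM complex (chr19:10928733-10933535), measured 15.1, 15.5 and 13.9 CPM in shNC and 10.8, 13.0 and 14.05 CPM in shECM1. Its groups overlapped and its log2 fold change was -0.22 ± 0.15 (edgeR adjusted p = 0.400), the lowest of all members, and -0.12 without shECM1 replicate 1. The transcript of TIMM29 has 61.1% GC. With a trend in GC content removed in each library, TIMM29 had -0.06, TOMM20L was lower (-0.12) and TIMM22 had 0.53. The part of GC content in this contrast was not tested. TIMMDC1, a complex I assembly factor of the same protein family, had 0.18 with overlapping groups, 0.29 without shNC replicate 2 and 0.11 without shNC replicate 3.

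The small TIM chaperones of the intermembrane space, which carry hydrophobic precursors between the membranes, had the highest median of the roles. All 5 were positive, with a median log2 fold change of 0.44, 3 at an unadjusted p under 0.05 and 3 without overlap. Over all genes these shares were 51.4%, 8.31% and 11.2%. TIMM8B (chr11:112084800-112086798) measured 56.9, 76.6 and 53.0 CPM in shNC and 77.7, 94.3 and 98.4 CPM in shECM1. Its shNC replicate 2 stood just under the lowest knockdown library, and the log2 fold change was 0.54 ± 0.15 (edgeR adjusted p = 0.108, DESeq2 adjusted p = 0.0257). Of its exonic bases, 30.1% lie opposite NKAPD1, so that counting without strand would mix the 2 genes. Other members also overlap a gene on the opposite strand, among them TIMMDC1 (29.2%), TOMM20L (27.9%) and GFER (25.9%). TIMM10 (chr11:57528463-57530803), which forms the carrier-binding ring with TIMM9, measured 38.8, 52.9 and 36.9 CPM in shNC and 54.9, 59.5 and 64.9 CPM in shECM1. Here too shNC replicate 2 was close to the knockdown (0.48 ± 0.15, edgeR adjusted p = 0.118, DESeq2 adjusted p = 0.0496). TIMM13 (chr19:2425624-2427894), the partner of TIMM8A, measured 62.3, 74.6 and 57.3 CPM in shNC and 75.6, 83.8 and 103 CPM in shECM1 (0.44 ± 0.14, edgeR adjusted p = 0.128). LMNB2 covers 13.0% of its exonic bases on the same strand, and reads there cannot be told apart. TIMM9 (0.37) and TIMM8A (0.28) showed overlapping groups, because shNC replicate 2 reached 34.6 and 19.4 CPM, above the lowest shECM1 library of each gene. Without that library their log2 fold changes were 0.59 and 0.50, and without shNC replicate 3 they were 0.21 and 0.17.

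The MIA relay oxidises the small TIM chaperones after their entry, and both of its members were positive, with a median of 0.12. CHCHD4, its oxidoreductase, measured 14.2, 16.2 and 12.0 CPM in shNC and 14.2, 17.6 and 15.6 CPM in shECM1 (0.16 ± 0.16). Its log2 fold change was 0.29 without shNC replicate 2, 0.06 without shNC replicate 3 and 0.08 without shECM1 replicate 2. GFER, which reoxidises CHCHD4, measured 19.9, 21.9 and 19.7 CPM in shNC and 20.2, 22.3 and 22.4 CPM in shECM1 (0.08 ± 0.13). Both overlapped between the groups, and neither was called by edgeR or DESeq2 with or without shNC replicate 2.

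Of the matrix proteases that trim imported proteins, MIPEP stood apart. MIPEP, the intermediate peptidase (chr13:23730189-23889419), measured 22.5, 29.4 and 19.3 CPM in shNC and 30.9, 30.4 and 35.6 CPM in shECM1. The highest control was again shNC replicate 2 (0.44 ± 0.16, edgeR adjusted p = 0.151). PMPCB, the catalytic subunit of the processing peptidase, measured 146, 154 and 139.8 CPM in shNC and 174, 169 and 146 CPM in shECM1, with shECM1 replicate 3 among the controls (0.16 ± 0.10). PMPCA, the substrate-binding subunit, had a log2 fold change of 0.01.

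Set side by side, the outer and inner membranes did not separate. The medians of 0.28 and 0.25 lie close together against ranges of -0.14 to 0.62 and -0.22 to 0.50, and the difference between the membranes was not tested. Without shECM1 replicate 1 the order turned, with 0.26 for the outer and 0.31 for the inner membrane. The matrix proteins GRPEL1 (0.16) and GRPEL2 (0.09) were counted with the inner membrane and lay under its median. The order of the 0.28 and 0.25 medians therefore also depends on that placing. The inner median fell to 0.14 without shNC replicate 3 and to 0.16 without shECM1 replicate 2. Without shNC replicate 2 the medians were 0.39 and 0.37. On each membrane edgeR then called 5 of 13 tested members, all higher, against 9.73% of all genes called higher. Among the 5 members that DESeq2 called with all libraries, 0 were on the outer membrane, 3 on the inner membrane and 2 in the intermembrane space. Since the members are not replicates of a membrane, these counts describe the lists only.

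**Figure D3:**
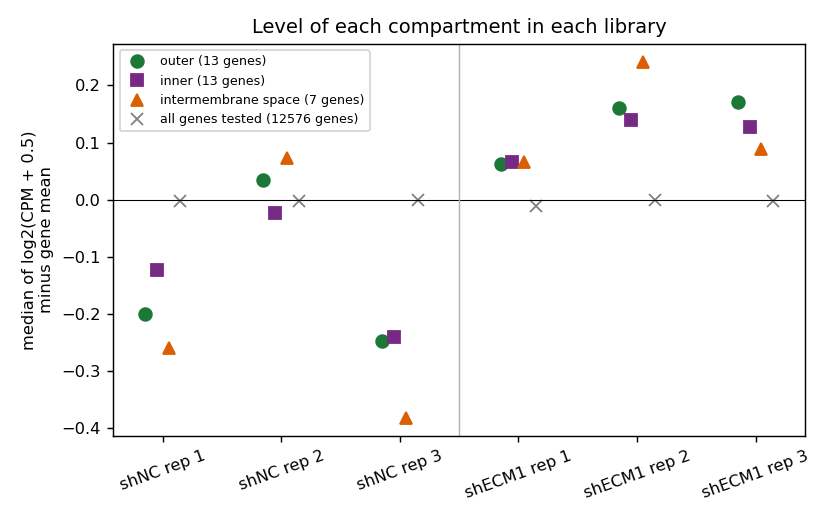
The vertical axis is the median over a compartment's tested genes of log2(CPM + 0.5) minus the gene mean, for each library on the horizontal axis. Outer genes run at -0.20, 0.03 and -0.25 in shNC replicates 1 to 3 and at 0.06, 0.16 and 0.17 in shECM1, inner genes at -0.12, -0.02 and -0.24 and at 0.07, 0.14 and 0.13, and the median of all genes (crosses) stays near 0.

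The compartment medians ranked the controls in the same order, which need not hold for each gene. For the outer, the inner and the intermembrane space genes alike, shNC replicate 3 was lowest and shNC replicate 2 the highest control. For both membranes every shECM1 library stood above every shNC library. In the intermembrane space, shNC replicate 2 (0.073) stood above shECM1 replicate 1 (0.067) and below replicate 3 (0.089).

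Differences within a complex were measured as the log2 ratio of 2 paralogs inside each library, which cancels the library scaling. With 3 libraries against 3 the smallest two-sided exact permutation p is 0.1, so that no pair could pass 0.05. The TIMM17A to TIMM17B ratio was -0.66, -0.40 and -0.74 in shNC and -0.29, -0.30 and -0.28 in shECM1. The shift of 0.31 towards TIMM17A separated the groups (exact permutation p = 0.1, adjusted p = 0.25 over 5 pairs). The TIMM8A to TIMM8B ratio was -1.998, -1.955 and -1.998 in shNC and -2.06, -2.19 and -2.45 in shECM1, a shift of -0.25 towards TIMM8B that also separated the groups (exact permutation p = 0.1, adjusted p = 0.25) and was -0.14 without shECM1 replicate 3. The ratios TOMM40 to TOMM40L (0.31, exact permutation p = 0.2), MTX1 to MTX3 (-0.40, p = 0.3) and GRPEL1 to GRPEL2 (0.06, p = 0.5) overlapped between the groups.

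Genes that work beside the import machinery were read from 6 lists. Their counts stand beside the shares of all genes, which were 51.4% positive, 8.31% higher and 14.2% lower at an unadjusted p under 0.05. At that p, 0 genes of the lists were lower, and edgeR called 0. SPG7 and UBQLN2 nevertheless lay lower in every shECM1 library than in any shNC library, with log2 fold changes of -0.19 and -0.12. Among 16 import partners, 13 were positive and 3 higher, with a median of 0.11. HSPE1, the cochaperonin of the matrix, measured 12.0, 20.8 and 10.2 CPM in shNC and 24.6, 26.8 and 20.6 CPM in shECM1 (0.75, edgeR adjusted p = 0.122), and HSPD1, its chaperonin, had 0.40. Both overlapped between the groups through shNC replicate 2. HSPA9, the mitochondrial Hsp70 of the motor, was named for its role after its values were seen and had 0.28 without overlap. Of 8 tested genes of the MICOS complex, which shapes cristae, 6 were positive and 4 higher (median 0.24), with CHCHD3 at 0.26. That list shares SAMM50 and MTX2 with the members. Of 16 tested cysteine-rich substrates of the MIA relay, 14 were positive and 4 higher (median 0.18), led by TRIAP1 (0.44) and NDUFB7 (0.33).

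Of 9 proteases of the inner membrane and matrix, 8 were positive and 1 (11.1%) higher, a share near that of all genes (median 0.14). AFG3L2 had 0.32 and OMA1 0.39, both with overlapping groups. The one protease whose groups lay apart was SPG7, at 80.5, 74.9 and 80.1 CPM in shNC and 73.9, 67.98 and 64.97 CPM in shECM1 (edgeR adjusted p = 0.301). Of 10 cytosolic chaperones that deliver precursors, 8 were positive and 3 higher (median 0.20). HSPA8, the constitutive cytosolic Hsp70, measured 289, 581 and 294 CPM in shNC and 527, 592 and 788 CPM in shECM1 (0.71), and DNAJA1, its J-protein, had 0.45. In HSPA8, shNC replicate 2 stood with the knockdown and the other 2 controls far below. Of 14 regulators of mitochondrial biogenesis, 12 were positive and 5 higher (median 0.29). TFAM, which packages and transcribes mitochondrial DNA, measured 90.7, 104 and 78.2 CPM in shNC and 128, 121 and 114 CPM in shECM1 (0.41, edgeR adjusted p = 0.112), and TFB2M, a mitochondrial transcription factor, had 0.56. Of the genes of the factors whose letters were searched, NRF1 (-0.12), GABPA (0.09) and YY1 (0.09) showed overlapping groups. GABPB1, the other subunit of GABP, measured 27.7, 27.4 and 27.3 CPM in shNC and 34.4, 31.2 and 28.2 CPM in shECM1, groups that lay apart (0.19 ± 0.12, edgeR adjusted p = 0.380).

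Transcript GC content moved with the comparison. Across 12502 genes the log2 fold change had a Spearman correlation of -0.38 with GC content, and across the 37 tested members -0.30; genes share libraries and are not independent, so no p is given. Members under 45% GC had a median of 0.26 (14 members), against 0.12 over all such genes. Between 45% and 55% the 13 members had 0.36, against 0.01. At 55% or more the 10 members had 0.06, against -0.16. The members' median thus exceeded that of all genes in each range. With a GC trend removed in each library, 14 members in place of 15 were higher at an unadjusted p under 0.05. Over all genes, 2834 in place of 2827 had such a p in either direction. The medians were then 0.23 for the outer and 0.15 for the inner membrane. Each of the 10 members at 55% GC or more had a higher log2 fold change than before. Among them, MTX1 had 0.23, GFER 0.25 and PMPCA 0.16. TIMM17A has 40.6% and TIMM17B 60.2% GC, and with that trend removed they had log2 fold changes of 0.20 and 0.14, and the part of GC content in their divergence was not tested.

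**Figure D4:**
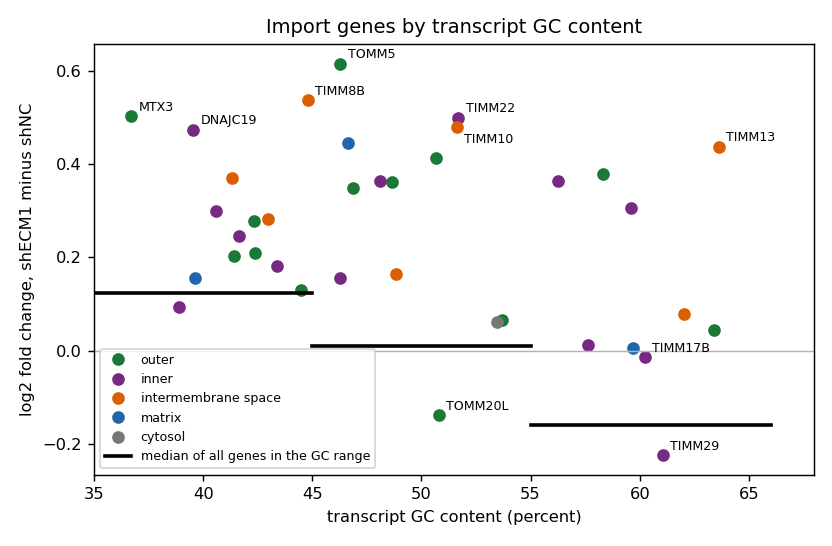
Each point is 1 of the 37 tested import genes, with the GC content of its transcript in percent on the horizontal axis and its log2 fold change (shECM1 minus shNC) on the vertical axis. Black bars are the medians of all genes in 3 GC ranges (0.12, 0.01 and -0.16), and most members lie above the bar of their range.

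The labels name colorectal cancer cells, and all 9 epithelial markers were detected, with summed levels of 12218 to 18019 CPM in shNC and 11865 to 13215 CPM in shECM1. Fibroblast markers summed to 23.6 to 35.5 CPM in shNC and 16.7 to 20.9 CPM in shECM1, with COL3A1, FAP and PDGFRA at 0 in every library. Immune markers summed to 74.8 to 191 CPM in shNC and 48.8 to 77.5 CPM in shECM1, with PTPRC, CD3E, MS4A1 and TYROBP at 0. CD68 (41.4 to 175 CPM over the 6 libraries) and LYZ (4.86 to 15.8 CPM) carried nearly all of that sum, and CD14, CD79A and FCER1G stayed at or under 0.536 CPM. Endothelial markers summed to 9.73 to 12.2 and 8.04 to 9.22 CPM, with KDR at 0. Of these 4 sums, shNC replicate 2 had the lowest of the controls in the first 3. The part of these levels in the import results was not tested. The labels name SW620 as the only cells, so these sums are levels of marker genes and not counts of cell types. In such libraries a change in the share of cells and a change in RNA per cell cannot be told apart.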

How the data were processed

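Per the labels, total RNA came from SW620 cells with either hairpin, and the same protocols describe droplet single-cell libraries, so it is unclear if a column holds bulk RNA or pooled cells, and each was treated as 1 library. The authors deposited 1 table of raw counts per gene and library. The submitters' processing notes name fastp, STAR, featureCounts, DESeq2, Seurat, GRCh38 and hg38. Versions, settings, annotation and strand use were not given in the sources used here. Columns were matched to samples by the letters and numbers of their names, and if the letters meant the opposite groups, every direction would be reversed. ECM1, the target of the hairpin, was lower in every library taken as shECM1 (mean 12.3 CPM, SD 3.40) than in any taken as shNC (mean 36.7 CPM, SD 16.7; 3 libraries each), as this match requires. Nothing says that replicates were separate cultures, and the spread behind each p-value may be technical.

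Counts were tested with edgeR 4.0.16 in R 4.3.3 (filterByExpr, trimmed mean of M values scaling, quasi-likelihood test, Benjamini-Hochberg over 12576 genes, threshold 0.05). CPM levels use the same scaling, and standard errors (SE) were derived from the fold change and its F statistic. Alternatives were other scalings and count filters, DESeq2 1.42.0, limma-voom (limma 3.58.1), a per-library GC trend, the replicate number as a block, and leaving out each library. The script was tested on simulated counts with the same dispersion for all genes. The pass was set only on changes larger than that of any member. It does not show how well differences as small as the members' are recovered. Coordinates and GC are from GENCODE release 29 (GRCh38), and promoters from RefSeq (GRCh38.p14). Same-numbered libraries did not deviate together from their group means (correlations -0.07, -0.05 and -0.18). With 3 libraries per group and shNC replicate 2 far from the other controls, this cannot tell whether replicate numbers shared a culture or batch.

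The members, role lists, pathway lists and motifs were chosen with earlier results of these data known. Per role, the text names the 2 tested members with the largest log2 fold change in size, the one with the highest mean CPM, and every member without overlap at an unadjusted p under 0.05. Per pathway list it names the 2 smallest p-values. Other names were added for their role after their values were seen.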

Additional observations from a re-analysis of the deposited data

How the results depend on the processing

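Of the 37 tested members, 29 kept their direction under every alternative and 8 reversed under at least 1, all with a log2 fold change near 0 or few counts. Over members and alternatives, 534 results kept direction and side of the threshold, 37 passed it and 19 reversed. With no count filter 505 genes and 1 member were called, with DESeq2 713 genes and 5 members, and with DESeq2 without shNC replicate 2 2680 genes and 15 members. Leaving out each library in turn gave 0 to 3037 genes called, 1433 to 4748 genes at an unadjusted p under 0.05, 0 to 16 members called and 8 to 22 members higher at an unadjusted p under 0.05. The inner median log2 fold change was 0.15 with the GC offset, 0.36 with DESeq2 without shNC replicate 2, and 0.14 to 0.37 on leaving out each library. With the replicate block 15 members were higher at an unadjusted p under 0.05, 2414 genes had such a p and 0 genes were called. The fit without the block had called 0 as well, so no call could be lost, and this says little about pairing.

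On leaving out each library, log2 fold changes ran from -0.11 to 0.16 for MTX1, -0.15 to 0.22 for TOMM40L, -0.31 to 0.091 for TOMM20L, -0.073 to 0.15 for PAM16, -0.040 to 0.18 for TOMM34, -0.063 to 0.057 for PMPCA and -0.056 to 0.033 for TIMM17B. With DESeq2 without shNC replicate 2 they were 0.089 for TOMM20L, -0.047 for TOMM34 and -0.030 for PMPCA. With the GC offset they were -0.031 for GRPEL2 and 0.14 for TIMM17B, and by library size only 0.013 for TIMM17B. The cause of these changes was not tested. Genes with few counts, such as TOMM20L (11 to 23) and MTX3 (31 to 62), limit what these libraries can show.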
